A study of Mus musculus with 2 samples.

Results

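The genes described here are the enzymes that remove reactive oxygen species and keep thiols reduced: superoxide dismutases, glutathione peroxidases, peroxiredoxins, catalase, thioredoxins, glutaredoxins, glutathione transferases and the enzymes that make and recycle glutathione. They were chosen by gene symbol alone, from families named Sod, Gpx, Prdx, Txn, Glrx, Gst, Mgst, Gcl, Nqo and Hmox plus Cat, Gsr, Gss and Srxn1, with at least 1 protein-coding transcript. This gave 75 of 55536 annotated genes, and 1 further symbol was left out for want of a coding transcript. The symbol rule also takes in Txnip, which binds thioredoxin and is no enzyme, and thioredoxin-like and thioredoxin domain genes of other functions.

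Both libraries came from gastrocnemius, the calf muscle, of female B6CASTF1/J mice aged 2 months, the F1 of a B6 and a CAST parent, with no treatment named. Total RNA (300 ng) was sequenced with ERCC spike-ins, with 45231388 and 47956841 expected counts. Values are given for animal 1 and then animal 2. There was 1 group of 2 biological replicates, so no conditions were compared and no p-value is given. The labels give both mice the same donor record, so it is unclear whether they are separate animals. Whether the spread between the libraries is biological or technical is therefore not known. The tissue carried its defining fast-fibre markers in both animals, with all 9 above 1 TPM (a transcript level scaled for length and to a fixed total per library) and summed levels of 53404 and 50426 TPM. Other markers differed between the libraries. Summed adipocyte markers stood at 830 and 109 TPM, Schwann cell and myelin markers at 254 and 34.3 TPM, and slow-fibre markers at 873 and 3624 TPM. Summed tenocyte markers stood at 120 and 215 TPM, endothelial markers at 91.1 and 73.8 TPM, and satellite cell markers at 10.1 and 9.42 TPM. Liver and kidney markers were near 0, at 1.78 and 0.10 TPM, and Kap, a kidney marker, had no count.

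Superoxide that leaks from respiration is turned into hydrogen peroxide by superoxide dismutases, and the peroxide is then reduced by peroxiredoxins, glutathione peroxidases or catalase. Peroxiredoxins draw their electrons from thioredoxin and thioredoxin reductase, glutathione peroxidases from glutathione and glutathione reductase, and both reductases are fed by NADPH. In muscle, an organ with a high and variable flux of oxygen, many of these genes are known targets of the transcription factor Nrf2.

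A part of the family needs selenium. In these genes a TGA codon, normally a stop, is read as selenocysteine, the amino acid of the catalytic site. GENCODE M21 marks such a codon in 7 of the 75 genes. The coding sequence around it is shown because it separates the glutathione peroxidases, with the codon inside the reading frame, from the thioredoxin reductases, with the codon 1 codon away from the stop. Each line gives 5′ to 3′ coding sequence of the named transcript, and capitals mark the TGA read as selenocysteine.
Gpx1-201: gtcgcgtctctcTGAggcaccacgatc
Gpx2-201: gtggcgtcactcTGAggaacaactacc
Gpx3-201: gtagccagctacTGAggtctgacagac
Gpx4-202: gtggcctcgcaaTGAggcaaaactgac
Txnrd1-201: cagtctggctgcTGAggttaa
Txnrd2-203: gtgactggttgcTGAggctaa
Txnrd3-201: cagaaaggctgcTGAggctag
The TGA is codon 47 of 201 in Gpx1, codon 73 of 197 in Gpx4 and codon 498 of 499 in Txnrd1. On mm10 these codons lie at chr9:108339451-108339453, chr10:80054737-80054739 and chr10:82896037-82896039, all on the plus strand. Gpx5, Gpx6, Gpx7 and Gpx8 carry no such mark.

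Of the 75 genes, 58 (77.3%) reached 1 TPM in both animals, against 46.5% of all protein-coding genes. Their median over those 58 was 15.97 TPM, and 7.75 TPM over all protein-coding genes that passed the same threshold. All 75 together held 0.226 ± 0.0089% of TPM (SD, n = 2), or 2322 and 2196 TPM. The 10 most abundant members held 57.8% of that sum. The expected count was 0 in both animals for 7 members: Gpx5, Gpx6, Gstm3, Gstp3, Prdx6b, Txndc2 and Txndc8. A count of 0 allows up to 3 counts in each library, by counting error alone. A further 10 had reads but stayed under 1 TPM in at least 1 animal.

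**Figure D1:**
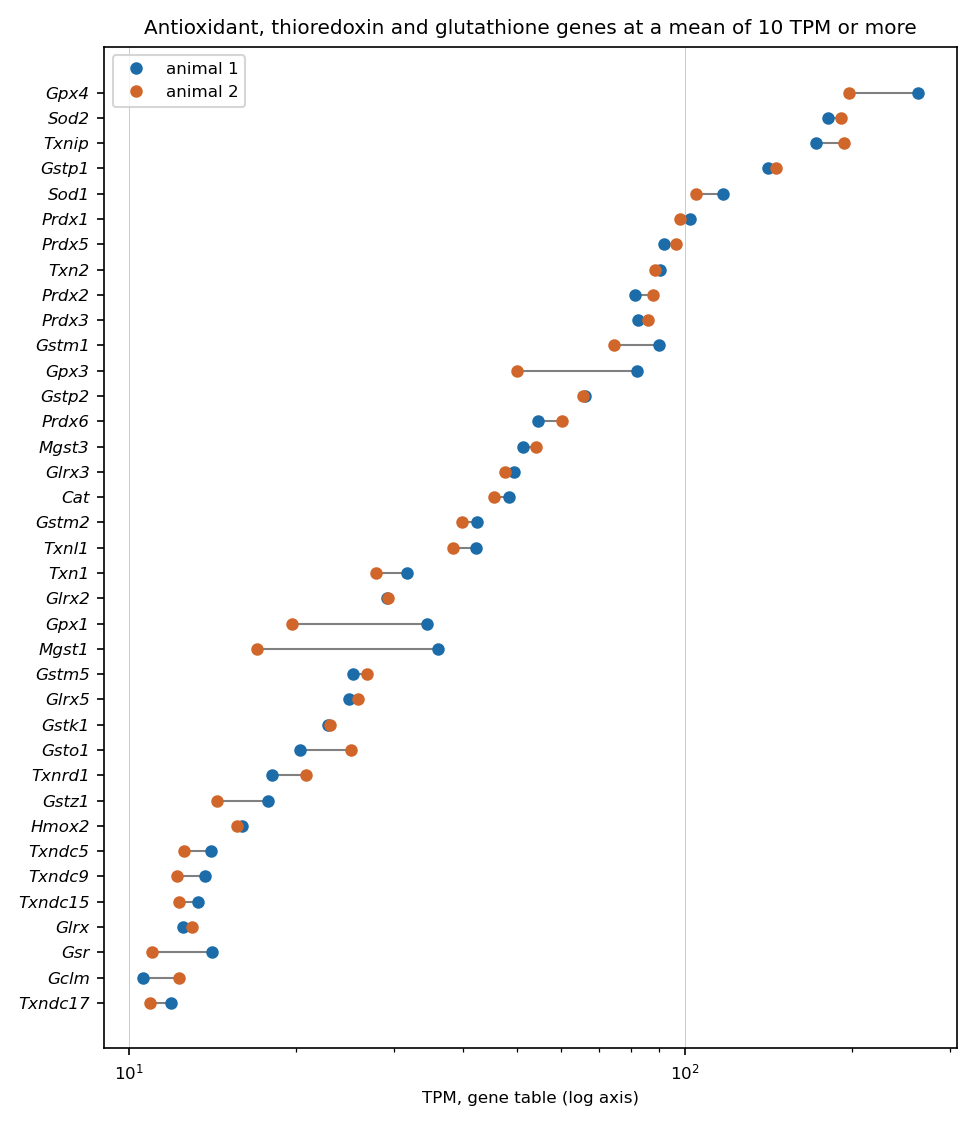
Levels in TPM (log axis) of the 37 genes whose mean was at least 10, with 1 point per animal joined by a line. Most pairs of points lie close together, and Mgst1, Gpx1 and Gpx3 have the longest lines.

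Of the superoxide dismutase genes the mitochondrial one had the highest gene-level TPM, but not the highest level of coding transcripts. Sod2 (chr17:13006846-13040063) stood at 181 and 191 TPM, and the cytosolic Sod1 (chr16:90220754-90226329) at 117 and 105 TPM. The ranges of the animals did not overlap between these genes. The mean log2 ratio of Sod1 over Sod2 was -0.75 ± 0.17 (SD, n = 2), more than 2 SD from 0. Over protein-coding transcripts alone the order turned, with Sod1 at 117 and 104 TPM and Sod2 at 41.9 and 45.1 TPM. The second transcript table gave coding levels of 225 and 184 TPM for Sod1 and 116 and 122 TPM for Sod2. Sod3, the secreted form bound to the matrix, was far lower, at 5.59 and 3.34 TPM.

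Glutathione peroxidases were dominated by Gpx4, which reduces lipid hydroperoxides within membranes. Gpx4 (chr10:80047166-80056439) had the highest mean of the 75 genes in the gene table, at 263 and 198 TPM, and held 70.2 ± 3.07% of the TPM of its family. In the second transcript table Sod2, at a mean of 381 TPM, stood above Gpx4, at 311 TPM. Gpx3, the secreted plasma enzyme, stood at 82.2 and 49.9 TPM. Gpx1, the general cytosolic enzyme, was at 34.4 and 19.7 TPM. The order Gpx4 over Gpx3 over Gpx1 was the same in both animals, and the log2 ratio of Gpx1 over Gpx4 was -3.13 ± 0.28 (SD, n = 2), an 8.75-fold lower level of Gpx1. The endoplasmic reticulum forms Gpx8 (4.60 and 3.79 TPM) and Gpx7 (2.55 and 2.27 TPM) were low, and Gpx2, a form of the gut lining, had 1 read in animal 1 and 0 in animal 2.

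Peroxiredoxins made up most of the largest group by summed level, 472 and 486 TPM with catalase and sulfiredoxin included. Of the 5 leading forms, the cytosolic Prdx1 stood at 102 and 97.97 TPM and the cytosolic Prdx2, abundant in red cells, at 81.4 and 87.7 TPM. Summed erythroid markers were 237 and 305 TPM in animals 1 and 2, and their part in the Prdx2 level was not tested. Prdx5, found in mitochondria, peroxisomes and cytosol, stood at 91.8 and 96.7 TPM, the mitochondrial Prdx3 at 82.3 and 86.05 TPM, and Prdx6, which also has phospholipase activity, at 54.5 and 60.1 TPM. At gene level Prdx2 and Prdx3 overlapped, with a log2 ratio of 0.01 ± 0.03 (SD, n = 2), so the gene table set no order between them. Summed over all transcripts, the second transcript table put Prdx2 higher by 0.86 ± 0.01. The gene-level order of Prdx1 and Prdx2 depended on the table: Prdx1 over Prdx2 was 0.24 ± 0.12 here and -0.26 ± 0.10 in the second transcript table. Transcripts annotated as not protein-coding held 44.5% of Prdx2 in the first transcript table and 47.3% in the second. They held 1.17% and 0.60% of Prdx1 and 0% of Prdx3. These ratios therefore do not give the order of coding transcripts. Prdx4, of the endoplasmic reticulum, was at 4.20 and 3.76 TPM. Catalase, the peroxisomal enzyme encoded by Cat, stood at 48.3 and 45.4 TPM. Srxn1, which repairs over-oxidized peroxiredoxins, was at 7.58 and 8.71 TPM.

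In the thioredoxin system the mitochondrial carrier and the cytosolic reductase had the higher levels. Mitochondrial Txn2 stood at 90.2 and 88.5 TPM, against 31.7 and 27.8 TPM for cytosolic Txn1, a 3.00-fold higher level of Txn2. Among the reductases the cytosolic Txnrd1 was at 18.1 and 20.9 TPM and the mitochondrial Txnrd2 at 7.10 and 7.69 TPM. Txnrd1 over Txnrd2 gave a log2 ratio of 1.38 ± 0.06 (SD, n = 2), and Txn1 over Txn2 one of -1.58 ± 0.11. Txnrd3, known from testis, was at 1.76 and 1.21 TPM. Txnip, which binds thioredoxin and limits glucose uptake, stood at 172 and 194 TPM, a range that overlapped that of Sod2 in the gene table. In the second transcript table Txnip had a mean of 231 TPM and Sod2 one of 381 TPM.

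Among thioredoxin-related proteins, 10 of 12 reached 1 TPM in both animals. Txnl1, a cytosolic protein bound to the proteasome, led at 42.2 and 38.3 TPM. Txndc5, a protein disulfide isomerase, stood at 14.1 and 12.6 TPM, and Txndc9, Txndc15 and Txndc17 at means of 12.96, 12.8 and 11.4 TPM. The splicing proteins Txnl4a (7.10 and 7.10 TPM) and Txnl4b (3.75 and 2.71 TPM) and the endoplasmic reticulum proteins Txndc11, Txndc12 and Txndc16, at means of 3.25, 4.83 and 3.66 TPM, were lower. Glutaredoxins, which are reduced by glutathione, gave nearly equal sums of 116 and 116 TPM. Glrx3, a cytosolic iron-sulfur protein, was at 49.3 and 47.5 TPM, the mostly mitochondrial Glrx2 at 29.1 and 29.2 TPM, the mitochondrial iron-sulfur carrier Glrx5 at 24.9 and 25.9 TPM, and Glrx at 12.5 and 13.0 TPM. A transcript annotated as not protein-coding held 61.5% of Glrx5 in the first transcript table and 85.7% in the second, against 0.43% and 0.40% for Glrx. In the first table the coding Glrx5-201 stood at 9.17 and 9.37 TPM and the coding Glrx5-203 at 0.77 and 0.23 TPM.

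Genes of glutathione synthesis were present at low levels. Gclm, the modifier subunit of the first enzyme, stood at 10.6 and 12.3 TPM, above its catalytic partner Gclc at 3.66 and 3.20 TPM. Their log2 ratio, Gclc over Gclm, was -1.71 ± 0.28 (SD, n = 2). Gss, which completes the tripeptide, was at 2.09 and 2.31 TPM. Glutathione reductase, Gsr, stood at 14.1 and 11.01 TPM, and its ratio to Txnrd1 was within the spread (log2 ratio of Txnrd1 over Gsr 0.64 ± 0.39). In the second transcript table that ratio was 0.49 ± 0.17, beyond the spread. These ratios are of gene-level TPM. Transcripts annotated as not protein-coding held 28.3% of Gsr and 1.44% of Txnrd1 in the first transcript table, and 21.2% and 2.66% in the second. They held 42.8% of Gclm and 9.88% of Gclc in the first, and 64.7% and 21.5% in the second.

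Cytosolic and related glutathione transferases, which attach glutathione to reactive compounds, numbered 22 genes and held 19.8% of the members' TPM. Of these, 12 reached 1 TPM in both animals. The pi class was the highest. Gstp1 stood at 141 and 146 TPM and Gstp2 at 66.3 and 65.7 TPM, while their neighbour Gstp3 had no count. These 3 genes lie within 24.2 kb on chromosome 19, and the posterior SD of the count, a measure of shared reads, was 2.21% for Gstp1 and 3.99% for Gstp2, so their split is uncertain. The 7 mu genes lie within 149 kb on chromosome 3 and differed widely. Gstm1 stood at 90.01 and 74.5 TPM, Gstm2 at 42.3 and 39.8 TPM, Gstm5 at 25.4 and 26.8 TPM and Gstm7 at 6.85 and 9.21 TPM, while Gstm4 had 3.85 and 3.90 TPM, Gstm6 0.29 and 0.13 TPM and Gstm3 no count. Of the alpha class only Gsta4, which acts on the lipid peroxidation product hydroxynonenal, reached 1 TPM in both animals (6.99 and 8.16 TPM). Gsta1 and Gsta2 had means of 0.11 and 0.02 TPM. The kappa enzyme Gstk1 stood at 22.8 and 23.04 TPM, the omega enzyme Gsto1 at 20.3 and 25.1 TPM and the zeta enzyme Gstz1 at 17.8 and 14.4 TPM, while Gsto2 was at 0.25 and 0.26 TPM. Of the theta class, clustered on chromosome 10, Gstt1 reached 1 TPM in both animals (2.91 and 2.04 TPM), Gstt2 and Gstt3 in animal 1 alone, and Gstt4 in neither.

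Membrane-bound transferases were represented by Mgst3 at 51.2 and 54.01 TPM and Mgst1 at 35.97 and 16.98 TPM. Of the detoxifying reductases and haem-degrading enzymes, the constitutive Hmox2 stood at 16.01 and 15.6 TPM and the inducible Hmox1 at 2.01 and 2.07 TPM. Hmox1 was thus 7.44-fold lower, at a log2 ratio of -2.90 ± 0.05 (SD, n = 2). Nqo1, a widely used marker of Nrf2 activity, was at 7.62 and 9.14 TPM and Nqo2 at 7.08 and 6.60 TPM, and their ratio was within the spread (0.28 ± 0.25). Across all 22 pairs compared, the ratio of gene-level TPM, with non-coding transcripts included, exceeded the spread in 17. No rate for pairs of other genes is given, so this count only describes the chosen pairs. Of the 36 neighbours in the order of the 37 genes at 10 TPM or more, 21 overlapped between animals and 15 did not.

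**Figure D2:**
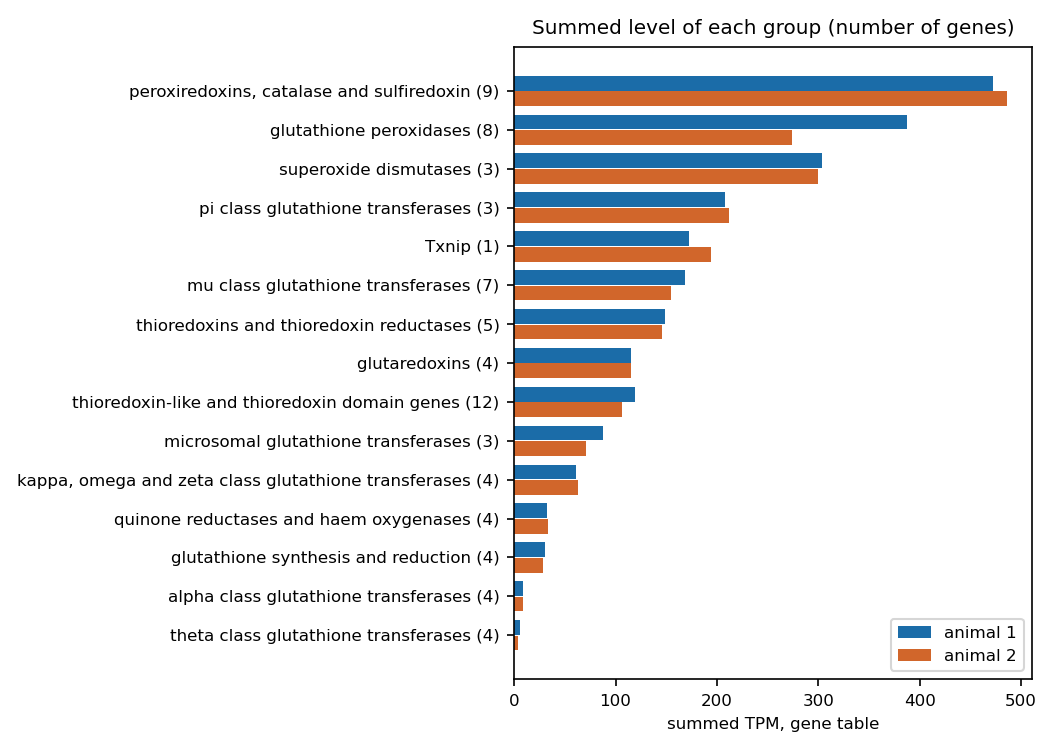
Summed TPM of each functional group in animal 1 and animal 2, with the number of genes in brackets and bars that start at 0. Glutathione peroxidases show the widest gap, 387 against 274 TPM.

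How far the animals differed was then measured as log2 of scaled expected counts, animal 2 over animal 1. These are ratios between single libraries, with no replicate check. A mean count of 100 or more was reached by 57 members, and 18 fell below it. Of the 57, 4 (7.02%) differed by 1.5-fold or more, all higher in animal 1. Of all 10872 genes with enough reads, 8.04% differed by that much, 5.6% higher in animal 1 and 2.44% higher in animal 2. The members' share was thus near the background. With spike-in scaling 3 members (5.26%) passed, against 9.07% of all genes. The split was then 1 higher in animal 1 and 2 in animal 2 in place of 4 and 0. The second transcript table gave 5 members, against 8.36% of genes there. In the main scaling no member reached 2-fold, against 2.97% of all genes, or 2.18% higher in animal 1 and 0.791% higher in animal 2. Mgst1 lay at that line: it passed 2-fold with DESeq2 size factors (log2 ratio -1.01), with library size (-1.10) and in the second transcript table (-1.03), and did not with spike-in scaling (-0.80). The median log2 ratio was 0.06 over the members and 0.02 over all genes. With the main scaling, 36 members had a ratio above 0 and 21 below, against a background of 54.8% above 0, but library size alone gave 25 and 32, and spike-in scaling gave 47 and 10. The median of all genes itself was 0.22 with spike-in scaling and -0.09 with library size, so each ratio is read against 0.02 in the main scaling.

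**Figure D3:**
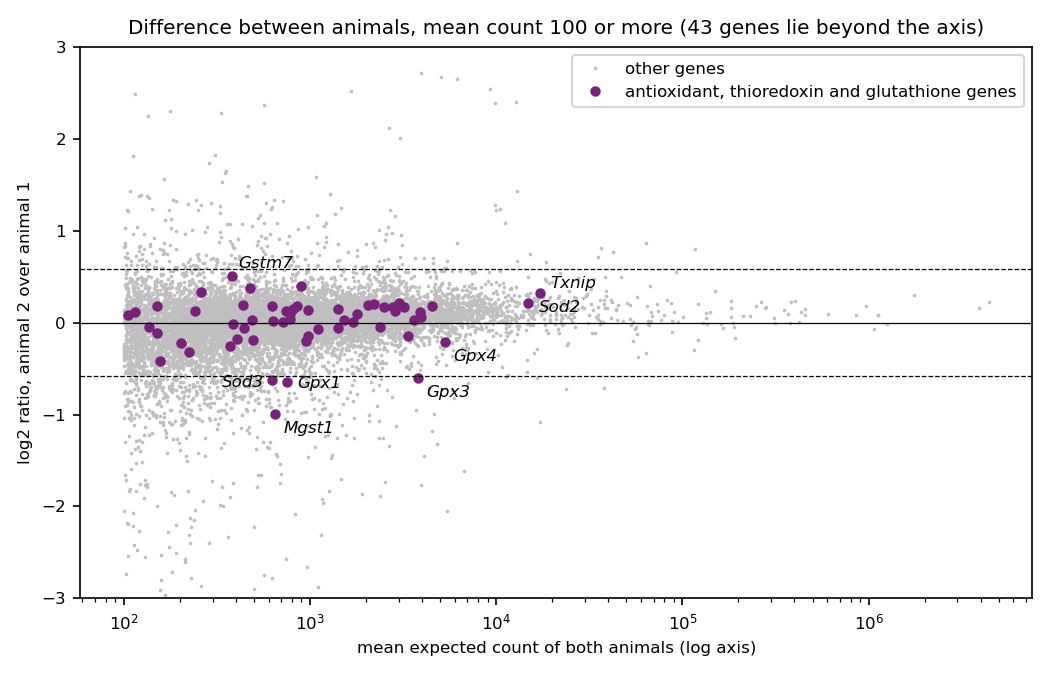
Log2 ratio of animal 2 over animal 1 against mean expected count (log axis), with each gene a point, dashed lines at 1.5-fold and 43 genes beyond the axis. Members lie within the cloud of other genes, and Mgst1, Gpx1, Sod3 and Gpx3 lie below the lower dashed line.

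Mgst1 was the member furthest apart among those with enough reads. Its 870 and 429 counts gave -0.99 on the log2 scale (95% exact binomial interval -1.17 to -0.83), or 1.99-fold higher in animal 1. Gpx1 had 929 and 583 counts (log2 ratio -0.65, interval -0.80 to -0.50). Sod3 had 765 and 487 counts (-0.63, -0.79 to -0.46), and Gpx3 had 4622 and 2985 counts (-0.61, -0.67 to -0.54). Intervals cover counting error only. The values for all 4 were as large in the second transcript table, at -1.03, -0.67, -0.64 and -0.63. With spike-in scaling Gpx1, Sod3 and Gpx3 no longer passed 1.5-fold (-0.45, -0.43 and -0.41), and Mgst1 still did (-0.80).

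Markers of several other cell types were also higher in animal 1. All 10 adipocyte markers were 1.5-fold or more higher in animal 1, with the adipokine gene Adipoq at 47.6 and 3.07 TPM. So were all 7 Schwann cell and myelin markers that had enough reads, 3 of 8 fibroblast markers, 4 of 7 pericyte and smooth muscle markers, 2 of 8 macrophage markers with enough reads and 1 of 8 endothelial markers. The macrophage count was 7 of 8 with library size and 0 of 8 with spike-in scaling. In the other direction, 8 of 8 slow-fibre and 5 of 6 tenocyte markers were 1.5-fold or more higher in animal 2. Macrophage markers summed to 74.8 and 47.4 TPM, and fibroblast markers to 1174 and 868 TPM. The part of these cells in the 4 differences was not tested. In bulk tissue, fewer cells of a type cannot be told apart from less RNA per cell. Just inside the 1.5-fold line was Gpx3, at 1.52-fold higher in animal 1. Just outside it were Gstm7, at 1.42-fold higher in animal 2, and Txnrd3, at 1.34-fold higher in animal 1. Gstm7 passed the line in the second transcript table (log2 ratio 0.59) and with spike-in scaling (0.70). Among members of fewer reads, named after their values were seen, Gsta3 had 65 and 8 counts and Mgst2 had 16 and 3.

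Sorted by where the proteins act, a grouping made after the values were seen, the members fell on different sides. Of the members, 8 were listed as mitochondrial: Sod2, Prdx3, Prdx5, Txn2, Txnrd2, Glrx2, Glrx5 and Gstk1. The count below rests on which members were listed, and Prdx5 is also found in peroxisomes and cytosol. Other members found in mitochondria only in part may be missing from the list. Members left off it had ratios on both sides of 0, so the count does not cover every member that may act there. All 8 had ratios above 0, from 0.11 to 0.21, with a median of 0.16. All 8 were also above 0 with library size alone (median 0.05), with spike-in scaling (0.36) and in the second transcript table (0.15). Of all genes with enough reads, 54.8% were above 0 in the main scaling, 31.9% with library size, 80.6% with spike-in scaling and 53.8% in the second table. The 8 slow-fibre markers, all 1.5-fold or more higher in animal 2, summed to 873 and 3624 TPM, and their part in these ratios was not tested. Of 10 members that are secreted or reside in the secretory route, 8 were below 0 and 2 above, with a median of -0.15. With spike-in scaling 6 were above 0 and the median was 0.05, against 80.6% of all genes and a median of 0.22 over them. The median of these 10 thus lay below that of all genes there, as in the main scaling (-0.15 against 0.02). Of the 6 selenocysteine genes with enough reads, Gpx1, Gpx3, Gpx4 and Txnrd3 had ratios below 0 and Txnrd1 and Txnrd2 above 0, with a median of -0.32. The split of 4 and 2 was the same with library size alone and with spike-in scaling. Gpx4 itself differed little, at -0.22.

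The other genes of the pathway were read from 9 lists, beside the same background of 8.04% at 1.5-fold. Of 11 regulators of Nrf2, 10 reached 1 TPM in both animals and none passed 1.5-fold in the main scaling, with 1 higher in animal 2 by spike-in scaling. Nfe2l1, a factor related to Nrf2, stood at 185 and 174 TPM, Sqstm1, an autophagy receptor that binds Keap1, at 151 and 135 TPM, and Cul3, the ubiquitin ligase scaffold, at 95.2 and 89.6 TPM. Of 17 other selenoprotein genes, 13 reached 1 TPM in both animals and none of 14 tested passed 1.5-fold. Selenow, an abundant selenoprotein of muscle, was the highest at 554 and 499 TPM, followed by the selenium carrier Selenop at 82.3 and 61.3 TPM and the methionine sulfoxide reductase Msrb1 at 65.9 and 59.3 TPM. All 7 genes listed as selenocysteine machinery, among them the selenocysteine lyase gene Scly, reached 1 TPM. Their sum was 40.2 and 39.7 TPM, and none passed 1.5-fold. Pstk, Sephs1 and Trnau1ap were the highest of them, at 15.8, 6.87 and 4.26 TPM on average.

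All 13 genes on the list of NADPH supply reached 1 TPM in both animals. That list includes Tkt and Taldo1, pentose phosphate enzymes that form no NADPH themselves. Of 12 with enough reads, 5 were 1.5-fold or more higher in animal 1 and 2 in animal 2. Higher in animal 1 were the pentose phosphate enzymes G6pdx (5.58 and 1.51 TPM), Pgd (12.8 and 6.86 TPM) and Tkt (15.9 and 5.39 TPM), the cytosolic isocitrate dehydrogenase Idh1 (17.6 and 8.90 TPM) and Aldh1l1 (2.81 and 1.91 TPM). Higher in animal 2 were the mitochondrial Idh2, at 118 and 232 TPM, and the mitochondrial transhydrogenase Nnt, at 37.1 and 62.1 TPM. The level of Nnt depended on the table, with a mean of 49.6 TPM here and 22.7 TPM in the second transcript table. Its log2 ratio there was 1.21. The cytosolic malic enzyme Me1 differed little, at 51.6 and 45.4 TPM. The log2 ratios were -1.79 for G6pdx, -1.54 for Tkt, -0.97 for Idh1, 1.08 for Idh2 and 0.86 for Nnt. With spike-in scaling 3 were higher in animal 1 and 2 in animal 2. Adipocyte markers were 830 and 109 TPM and slow-fibre markers 873 and 3624 TPM in animals 1 and 2, and their part in these differences was not tested.

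**Figure D4:**
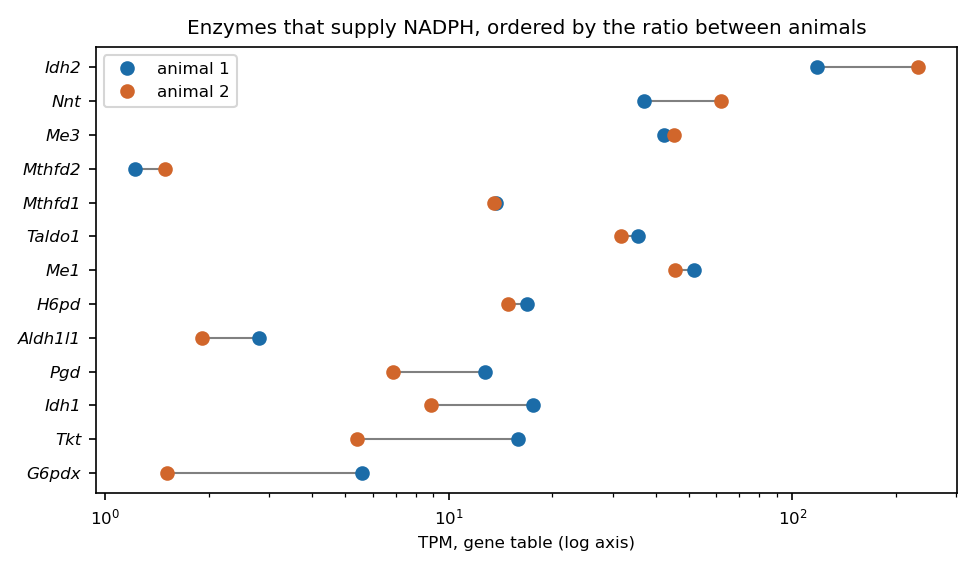
TPM of the 13 genes on the NADPH supply list in each animal (log axis), ordered by the ratio between animals. Tkt and Taldo1 are on the list but form no NADPH themselves. The mitochondrial genes Idh2 and Nnt lie to the right in animal 2, and G6pdx, Tkt, Idh1 and Pgd lie to the right in animal 1.

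Of 18 genes of glutathione precursors, turnover and transport, 12 reached 1 TPM in both animals. The mitochondrial glutathione carrier Slc25a39 stood at 27.4 TPM in each, Oplah, which recycles oxoproline, at 15.5 and 19.8 TPM and the amino acid transporter chain Slc3a2 at 18.9 and 12.6 TPM. The cystine transporter Slc7a11 was at 0.03 and 0.02 TPM. Of 11 with enough reads, Dpep1 was 1.5-fold or more higher in animal 1 (7.55 and 4.87 TPM) and the glutathione-degrading enzyme Chac1 in animal 2 (4.49 and 10.8 TPM). With spike-in scaling none was higher in animal 1, since Dpep1 was at -0.39, and Oplah joined Chac1 in animal 2. With library size 2 were higher in animal 1 and 1 in animal 2. In the list of oxidative damage repair and peroxide signalling, 9 of 10 genes reached 1 TPM and 1 passed 1.5-fold, the stress gene Sesn2 at 1.16 and 0.52 TPM. Park7, Glo1 and Msrb3 led it, at 201, 59.4 and 39.4 TPM on average. All 6 genes of haem breakdown and iron storage reached 1 TPM and none passed 1.5-fold in the main scaling, with the ferritin chain Fth1 at 883 and 777 TPM, Fech at 62.9 and 56.7 TPM and Ftl1 at 55.9 and 43.8 TPM.

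Promoters were searched for the core of the antioxidant response element, the site through which Nrf2 acts, spelled TGACNNNGC on either strand, in windows from 250 bases before to 50 after each RefSeq start (GRCm38.p6). Of the 65 members with a window, 12 (18.5%) held the letters, against 13.99% of all 27025 genes with windows. The share was close to that of all genes, and a match is a description of letters and not of a bound site. The 10 matching members with enough reads had ratios on both sides, 5 above 0 and 5 below. Shown are sites of 4 of the 12, not chosen by level: Sod1, the matching member of highest level at 111 TPM, is not among them. Capitals mark the match, and the sequence is given on the strand that reads TGAC.
Prdx1: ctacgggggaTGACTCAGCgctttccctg
Gclm: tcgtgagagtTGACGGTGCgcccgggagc
Txnrd1: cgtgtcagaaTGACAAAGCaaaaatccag
Mgst1: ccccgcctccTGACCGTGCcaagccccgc
They lie on the minus strand at chr4:116685456-116685484, chr3:122245413-122245441, chr10:82859104-82859132 and chr6:138140461-138140489.

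Transcript tables showed which transcripts carried these levels. Of 24 members at 20 TPM or more with several transcripts, 19 had a transcript with over 50% of the gene's TPM, and the second transcript table named the same leading transcript in 20. Sod1-201 held 99.6 ± 0.028% of Sod1 (SD, n = 2), Gpx3-201 held 99.9 ± 0.092% of Gpx3 and Txn2-201 held 88.08 ± 1.30% of Txn2. Between animals the share of a leading transcript varied most for Prdx1-205 in the first table, with an SD of 5.28, and for Gpx4-202 in the second, with an SD of 21.9.

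In 4 of the 24 the leading transcript was one annotated as not protein-coding, and the second table named the same one each time. For Sod2 it was Sod2-207, a processed transcript, with 54.5 ± 0.21% in the first table and 40.5% in the second. The coding Sod2-201 held 23.4% and 16.9%. For Prdx6 the leader was Prdx6-208, marked for nonsense-mediated decay, with 58.8 ± 2.14% and 51.3%. The retained-intron transcript Prdx2-205 held 44.03 ± 0.58% and 47.1% of Prdx2, and the processed transcript Glrx5-202 held 61.5 ± 2.02% and 85.7% of Glrx5. The gene-level TPM of these 4 genes therefore counts much RNA outside annotated coding transcripts. Over the 40 members with enough reads and at least 1 such transcript, their median share was 4.17% in the first table and 5.61% in the second, and it exceeded 25% in 11 in each.

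**Figure D5:**
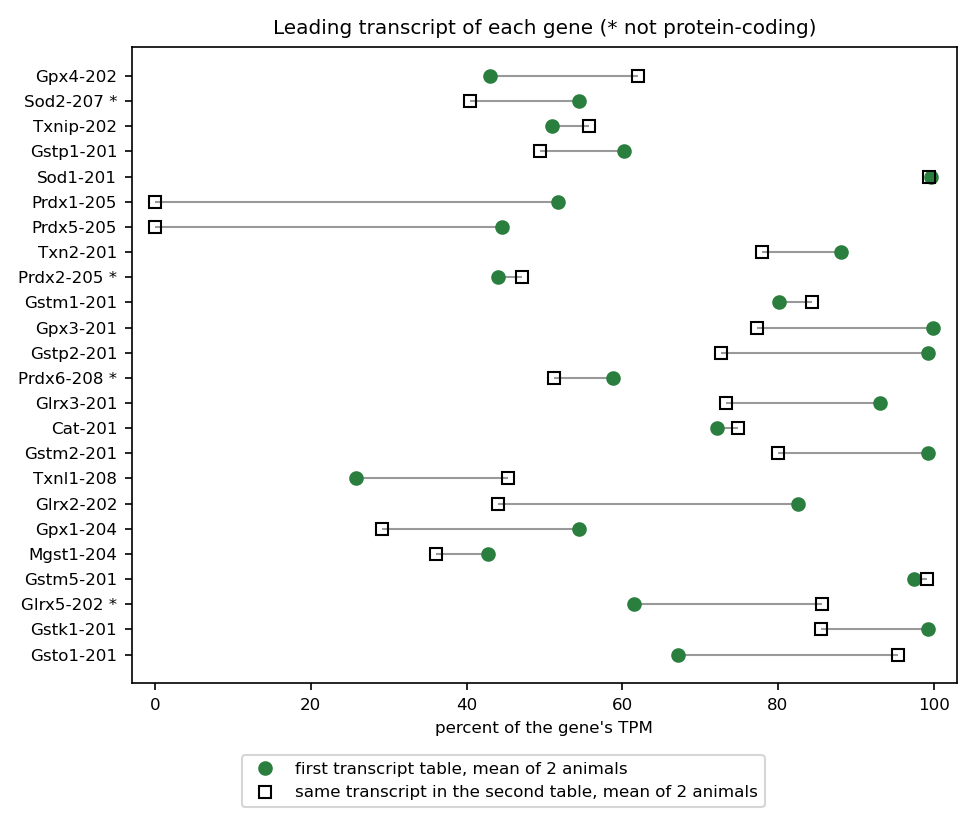
Percent of the gene's TPM held by the leading transcript of 24 genes, in the first transcript table (filled circles) and the second (open squares), each the mean of 2 animals. Prdx1-205 and Prdx5-205 lead in the first table and stand at 0 in the second, and asterisks mark the 4 transcripts that are not protein-coding.

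The tables disagreed on the leading transcript of Prdx1, Prdx5, Gpx1 and Mgst1. Prdx1-205 held 51.8% of Prdx1 in the first table and 0% in the second, which put 77.1% on Prdx1-202. Prdx5-205 held 44.6% and 0%, with Prdx5-201 at 55.9% in the second table. Gpx4 was assigned differently too. The first table put 43.04 ± 3.39% on Gpx4-202 and 30.7% on the retained-intron transcript Gpx4-203, which stood at 0% in the second table. There Gpx4-202 held 77.4% in animal 1 and 46.5% in animal 2, and Gpx4-201 held 22.4% and 52.6%. In the first table Gpx4-202 stood at 40.6% and 45.4%.

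All 60 members at 2 TPM or more in either table had a higher TPM in the second, as did 97.7% of 10163 protein-coding genes at that level. Their median ratio was 1.55, against 1.49 over those genes. None was 4-fold apart, against a background of 1.14%, and 7 were 2-fold or more higher in the second table, against 9.76% of those genes (10.2% in either direction). These were Sod2, Gstp1, Prdx2, Glrx5, Gclm, Gsta4 and Txnl4a, with Txnl4a the furthest at 3.33-fold (7.10 TPM in the gene table and 23.6 TPM in the second).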

How the data were processed

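Both libraries had a gene table, with the authors' expected count and TPM per gene and a posterior SD of the count, and a transcript table that adds the percent of the gene's TPM, per the file headers. A second transcript table held the authors' estimated counts and TPM, made from reads and an index. The build was mm10 with GENCODE M21 annotation, as the deposited lists of files state. For the programs and their versions, nothing is given in the sources used here. The mice were a B6 and CAST cross, mm10 is a B6 genome, and the effect of that on the counts was not tested.

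The members, lists and rules were chosen with earlier results of these data known. Values are means ± SD over the 2 animals. Expected counts were rounded, scaled with edgeR's TMM factors over all named genes, and turned into log2 ratios with a prior count of 0.5. A pair was called beyond the spread where the mean log2 ratio of TPM (pseudocount 0.1) exceeded 2 SD with 1 sign. The procedure was tested on simulated data. Named were all members at 10 TPM or more, those 1.5-fold apart at a mean count of 100, pairs, members 4-fold apart between tables, and the 3 highest of each pathway list with those 2-fold apart. Others were named after their values were seen. The 9 pathway lists and 12 lists of cell type markers were matched by symbol. Alternatives were DESeq2 size factors, library size, spike-ins, other prior counts, pseudocounts, thresholds and filters, the second table and each library alone. Computation used edgeR 4.0.16 and DESeq2 1.42.0 in R 4.3.3. Tables and figures were made in Python 3.11.15, with pandas 2.3.3, matplotlib 3.10.9, scipy 1.17.1 and numpy 2.4.6.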

Additional observations from a re-analysis of the deposited data

How the results depend on the processing

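The 4 members at 1.5-fold became 12 of 68 (17.6%) with no filter beyond a mean count above 0, against 37.9% of 24628 genes. At 2-fold they became 0 in the main scaling, against 2.97% of genes. At 2-fold, alternatives added after seeing the data gave 1 member, Mgst1, with DESeq2 size factors, with library size and in the second transcript table, and 0 with spike-in scaling. The 874 genes of the background became 2694 at a mean count of 10, 9341 with no filter and 323 at 2-fold, through the genes tested or the fold alone. Spike-in scaling moved the members' median log2 ratio from 0.06 to 0.26, with all genes. The second transcript table moved the members' median level from 8.38 to 16.2 TPM, their share of TPM from 0.226% to 0.371% and the median leading transcript share from 64.3% to 73.0%. Rescaling to nuclear protein-coding genes made the share 0.599%. Each library alone gave a median level of 7.62 to 9.21 TPM, a share of 0.220% to 0.232%, 58 to 61 detected members and a leading share of 63.5% to 65.3%. The remaining counts (detected members, pairs beyond the spread) stayed within 1.5 times of the main value under every alternative run. With 1 library the ratio between animals has no value, so that was not run. No paired analysis was possible because there is 1 group. Depth limits members of few reads, such as Hmox1 with 111 and 118 counts, and the ratios of the 18 members under a mean count of 100.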

Other observations

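Of 18 genes that produce oxidants, 7 reached 1 TPM in both animals. Xdh, which makes superoxide and uric acid, led at 23.2 and 19.7 TPM (animals 1 and 2), followed by the aldehyde oxidase Aox1 at 3.76 and 3.86 TPM and the NADPH oxidase subunit Cyba at 3.75 and 2.76 TPM. The phagocyte oxidase genes Cybb (1.13 and 1.01 TPM) and Ncf1 (2.12 and 1.35 TPM) were 1.5-fold or more higher in animal 1 by scaled counts. Summed macrophage markers stood at 74.8 and 47.4 TPM, with a median log2 ratio of -0.55 and 2 of 8 past 1.5-fold. Their log2 ratios were -0.62 and -0.66, and with spike-in scaling neither passed 1.5-fold. Nox1, Nox3 and Nox4 were under 1 TPM in both animals.

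Of 12 other genes with a glutathione transferase fold or of the membrane-bound superfamily, 10 reached 1 TPM in both animals. Eef1g, a translation elongation factor, stood at 164 and 166 TPM, the chloride channel protein Clic5 at 51.5 and 43.5 TPM and Ptges2 at 16.5 and 18.3 TPM. Of 8 with enough reads, Gdap1 (4.02 and 2.38 TPM) and the prostaglandin synthase gene Ptges (3.98 and 1.32 TPM) were 1.5-fold or more higher in animal 1. With spike-in scaling Ptges still passed and Gdap1, at -0.39, did not.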
